A study of Mus musculus with 107 samples.

Results

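The comparison described here sets mouse neural progenitor cells differentiated with ciliary neurotrophic factor (CNTF) against the same cells differentiated with 1% fetal bovine serum (FBS). Its members were the libraries titled CNTF diff and 1% FBS, 4 of each, which are 8 of the 107 libraries of the series. They were taken by title, as the 2 cultures with the highest mean level of Gfap, the gene of the main intermediate filament of astrocytes.

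The study followed neural progenitor cells (NPC) in culture and after grafting into the mouse spinal cord. It used RiboTag, an allele that puts an HA tag on a ribosomal protein, so that RNA bound to ribosomes can be pulled down with an antibody and sequenced. All 8 cultures were made from ES-derived NPC of the C57BL/6 strain with the genotype RiboTag +, and according to the methods of the study the NPC came from 1 embryonic stem cell line. For the 4 days of differentiation both groups were kept in 1 ng/ml of EGF and FGF, down from 100. One group had CNTF at 100 ng/ml besides and the other FBS at 1% vol/vol, so neither group is an untreated control. Levels are also given for cultures with lowered EGF and FGF alone (SPONT), with IGF-1, with 5, 10 or 20% FBS and with CNTF and 5% FBS together (CNTF+5% FBS), each with 4 libraries. Undifferentiated NPC at passage 15 (NPC P15) had 4 libraries. Host astrocytes of the spinal cord (Astro), pulled down from mice in which Cre under the Gfap promoter switches on the RiboTag allele in astrocytes, had 9. These other groups enter the test of CNTF against 1% FBS only in 1 alternative, a fit of all 8 differentiation groups. Summed over genes, the counts of a library came to 55269375 to 74847119 in CNTF (median 61174139.5) and to 61590713 to 90483031 in 1% FBS (median 76582690.5).

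CNTF binds a receptor made of Cntfr, Lifr and the shared subunit Il6st (gp130), which activates JAK kinases and the transcription factor Stat3. In progenitors of the central nervous system this pathway turns on Gfap and the formation of astrocytes. Serum is a mixture that carries BMP and TGF-beta activity, lysophospholipids, thrombin, lipids and hormones, which act through SMAD proteins, serum response factor, YAP and other factors. Astrocytes at rest clear glutamate and potassium and supply metabolites, whereas reactive astrocytes raise Gfap, Vim and secreted proteins, in part through Stat3.

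Levels are given as CPM, the count of a gene scaled to a total of 1000000 a library, and as FPKM, which divides CPM by the length of the exons in kilobases, where genes are set against each other. Differences are log2 fold changes (log2FC) of CNTF over 1% FBS with their standard error, so a positive value is higher in CNTF. A gene with a Benjamini-Hochberg adjusted p below 0.01 in edgeR's quasi-likelihood test is called a DEG.

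Gfap itself (chr11:102887336-102897200) was at 21571, 22165, 22548 and 22050 CPM in CNTF and 17348, 21399, 19987 and 15617 CPM in 1% FBS. The 4 CNTF libraries lay close together and above all 1% FBS libraries, of which replicates 1 and 4 were the lowest. The log2FC of 0.24 ± 0.09 did not pass the threshold (edgeR's adjusted p 0.0443), but did with 1% FBS replicate 2 left out (0.32, adjusted p 0.00847). Over all alternatives its adjusted p was 0.00847 to 0.203. The mean level over 4 libraries was 22084 ± 403 CPM (SD) in CNTF and 18588 ± 2596 in 1% FBS. In the other cultures it was 15523 ± 3611 in 5% FBS, 14685 ± 739 in CNTF+5% FBS, 13689 ± 689 in IGF-1, 9388 ± 1530 in 10% FBS, 7879.9 ± 1815 in SPONT, 4017 ± 271 in 20% FBS and 15.2 ± 2.05 in NPC P15. The order of the means is the one by which the 2 groups were chosen, although 1% FBS and 5% FBS differ by less than the SD of 5% FBS. In host astrocytes Gfap was at 21064 ± 1824 CPM (n = 9). TMM factors, which CPM leave out, were 0.763 to 0.8499 in Astro and 1.004 to 1.062 in the 2 cultures, so the order of host and cultures depends on the scaling.

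Some other astrocyte genes were far from the host level in both cultures. Aldh1l1, a folate enzyme specific to astrocytes, was at 11.1, 11.2, 11.6 and 10.4 CPM in CNTF and 15.1, 15.3, 17 and 19.6 CPM in 1% FBS, against a mean of 318 in host astrocytes. The calcium-binding protein S100b was at 68.7 to 78.2 CPM in CNTF and 105.4 to 109 CPM in 1% FBS, against 2566. The water channel Aqp4 was at 113, 138, 116 and 131 CPM in CNTF and 159.9, 185, 149.7 and 86 CPM in 1% FBS, against 2719. Others were nearer to it in 1% FBS, since Pla2g7 had means of 206 CPM in CNTF and 1079 in 1% FBS against 1016, and Slc1a3 of 361 and 812 against 678. Aldh1l1 (log2FC -0.61) and S100b (-0.58) were lower in CNTF without overlap of the groups, but S100b lost its call when all 8 differentiation groups were fitted together (-0.56, adjusted p 0.0371). Aqp4 was not called (-0.23, edgeR's adjusted p 0.277), and was lower in CNTF with 1% FBS replicate 4 left out (-0.41, adjusted p 3.5e-04). It was -0.09 without 1% FBS replicate 2. Sox9, a transcription factor of glia and their progenitors, was at 454 to 537 CPM in CNTF and 343.6 to 461 CPM in 1% FBS and was not called, though it was higher in the fit of all 8 groups (adjusted p 0.00755). Genes of progenitors, which astrocytes make as well, and of the oligodendrocyte lineage were also present: Sox2 at 694 to 743 CPM in CNTF and 549 to 611 CPM in 1% FBS, Fabp7 at 938 to 1121 CPM in CNTF and 1061 to 1861 CPM in 1% FBS and Olig2 at 683 to 731 CPM in CNTF and 582 to 691 CPM in 1% FBS. Fabp7 was not called, and its log2FC of -0.35 was -0.14 without 1% FBS replicate 4. The neuronal splicing factor Rbfox3 was at 23.9 to 27.4 CPM in CNTF and 8.91 to 10.7 CPM in 1% FBS and the synaptic gene Snap25 at no more than 1.604 CPM in any library. In bulk RNA fewer cells of a type and less RNA per cell cannot be told apart.

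Markers of most other cell types were near 0. Of 13 microglia and macrophage markers 6 were tested and none was called by edgeR, while 3 had an unadjusted p below 0.05, DESeq2 called 1 lower and edgeR called 1 lower without 1% FBS replicate 4. Cx3cr1, P2ry12, Aif1, Itgam and Ptprc each had means below 0.1 CPM in both groups. The 8 endothelial markers summed to 1.24, 1.52, 1.39 and 1.81 CPM in CNTF and 1.7, 2.22, 1.9 and 2.42 CPM in 1% FBS, with Flt1 the most abundant. Neither of the 2 tested was called by edgeR or DESeq2, and 1 had an unadjusted p below 0.05. Of 8 markers of pluripotent cells 4, Pou5f1, Dppa4, Zfp42 and Fgf4, had no count in any of the 8 libraries, and Esrrb was the 1 called of 3 tested (lower, -0.98, with means of 0.656 and 1.29 CPM). Without CNTF replicate 4, 2 were called lower. Among Schwann cell and neural crest markers (6 tested of 7, 1 higher, 2 lower and 3 not called, median log2FC -0.08), the called genes included Pmp22 (-0.41) and Sox10, which oligodendrocytes share. Ependymal markers gave 5 tested of 7, 4 higher, 0 lower and 1 not called, median log2FC 0.999. Their summed level was 339.9, 339.8, 341 and 340.3 CPM in CNTF and 278, 291, 259.6 and 255 CPM in 1% FBS, almost all of it Foxj1.

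Some libraries stood apart within their group. In a principal component analysis of log2(CPM + 1) the first component took 79.4% of the variance and separated the groups, and the second took 7.64% and set 1% FBS replicate 4 apart. That library's mean correlation with the other 1% FBS libraries was 0.994, against 0.995 to 0.996 for the others and 0.998 among CNTF libraries. It also had the smallest share of counts in genes without a name, 1.97%, against 5.04 to 7.39% in the other 1% FBS libraries and 7.28 to 8.11% in CNTF. Most of that share belonged to 1 identifier, 100861531, for which the reference used gives no name. Within CNTF, replicates 3 and 4 were high in immediate early genes, which cells switch on within minutes of a stimulus: Egr1 was at 30.2, 36.6, 199 and 231 CPM and Fos at 168.4, 170.7, 419 and 461 CPM in CNTF replicates 1 to 4, against 44.8 to 111 and 108 to 145 in 1% FBS. Counts and the genes that moved most with these libraries are given with and without them.

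Of 14979 genes tested, 6234 were DEGs, or 41.6%: 2836 (18.9%) were higher and 3398 (22.7%) lower in CNTF. Leaving out 1% FBS replicate 4 gave 3318 higher and 3517 lower, and keeping only CNTF replicates 1 and 2 gave 1625 and 2214. The groups did not overlap in CPM for 7347 of the tested genes (49.05%) and for 6024 of the DEGs (96.6%). Most differences were small. The median size of the log2FC among DEGs was 0.55, 1252 DEGs (20.1%) changed at least 2-fold, 473 upward and 779 downward, and the median log2FC over all tested genes was -0.01. That median is the one to set the lists below against. SPONT cultures, which had neither CNTF nor serum, had a mean level between the 2 groups for 1604 of the genes higher in CNTF (56.6%) and for 2172 of those lower in CNTF (63.9%). Their mean was nearer, on the log scale, to 1% FBS than to CNTF for 56.5% of the former and 65.2% of the latter.

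**Figure D1:**
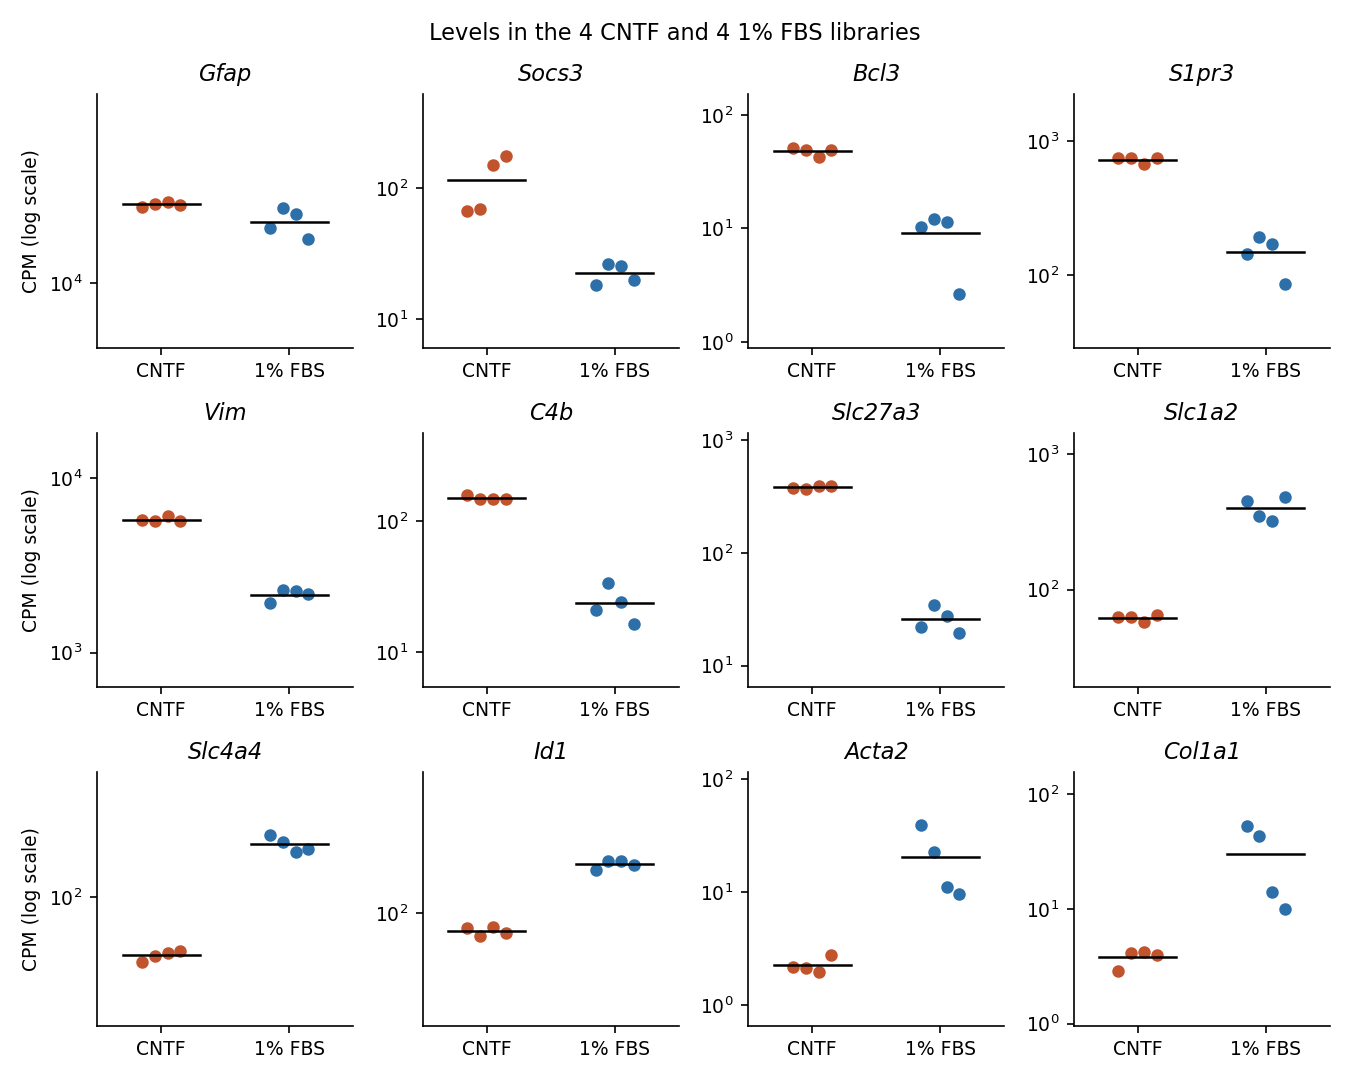
CPM on a log axis in each of the 4 CNTF and 4 1% FBS libraries for 12 genes, with a bar at the mean. Gfap, by whose level the groups were chosen, lies at nearly the same level in both. Socs3, Bcl3, S1pr3, Vim, C4b and Slc27a3 lie higher in every CNTF library, and Slc1a2, Slc4a4, Id1, Acta2 and Col1a1 lie lower.

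The first question is how the CNTF pathway itself stood in the 2 cultures. For the receptors of gp130 cytokines, their kinases and STATs, 13 of 13 members were tested, 2 were higher and 7 lower in CNTF, and 4 were not called, with a median log2FC of -0.33. Il6st, the signalling subunit, was at 158.9, 169.9, 157.7 and 174 CPM in CNTF and 389.6, 388, 346 and 354 CPM in 1% FBS; every CNTF library was below every 1% FBS library (log2FC -1.17 ± 0.06, edgeR's adjusted p 7.1e-09). Both other parts of the CNTF receptor were lower as well. Cntfr, which holds CNTF at the membrane, was at 40.7, 36.6, 33.1 and 40.5 CPM in CNTF and 69.7, 48.9, 64.9 and 70.9 CPM in 1% FBS (log2FC -0.76), and Lifr at 14.7 to 18.3 CPM in CNTF and 25.1 to 31.7 CPM in 1% FBS (-0.74). The kinase Jak1 followed (-0.58), as did Stat5a (-1.60) and Stat5b (-0.52). In the other direction stood Osmr, the subunit that pairs with Il6st in the oncostatin M receptor, at 47.9, 52, 47.4 and 49.3 CPM in CNTF and 24.7, 32.1, 27 and 20.7 CPM in 1% FBS (0.90). Stat3 was at 292 to 315 CPM in CNTF and 224 to 262 CPM in 1% FBS (0.31, edgeR's adjusted p 8.7e-04) and was not called with CNTF replicates 1 and 2 alone (0.31). The count of higher genes in this list rose from 2 to 4 without 1% FBS replicate 2. So the receptor chain that CNTF uses had the lower RNA level in the culture that received CNTF, and Osmr and Stat3 the higher.

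Of the ligands of these receptors, 5 of 8 members were tested, 2 were higher and 0 lower in CNTF, and 3 were not called, with a median log2FC of 0.47. In this list, and among the cell cycle, fatty acid synthesis, amino acid response, metallothionein and ependymal lists given further on, the direction with 0 DEGs by edgeR also had 0 genes at an unadjusted p below 0.05 and 0 called by DESeq2. Clcf1, a ligand that acts through Cntfr, was near the limit of detection at 0.914 to 1.66 CPM in CNTF and 0.144 to 0.406 CPM in 1% FBS (2.20). Osm had no count in any of the 8 libraries.

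Of known STAT3 targets and feedback genes more were higher than lower: 23 of 23 members were tested, 11 were higher and 3 lower in CNTF, and 9 were not called, with a median log2FC of 0.44. Socs3, which blocks gp130 signalling and is induced by it, was at 67.3, 69.5, 149.8 and 177 CPM in CNTF and 18.2, 26.2, 25.4 and 19.9 CPM in 1% FBS. All CNTF libraries were higher, with replicates 3 and 4 more than 2 times as high as replicates 1 and 2 (log2FC 2.36 ± 0.28, edgeR's adjusted p 1.5e-05). It was 1.59 with CNTF replicates 1 and 2 alone, and the adjusted p was 5.3e-10 to 1.1e-04 over all alternatives. Socs3 lies at chr11:117966079-117970336. Bcl3, a cofactor of NF-kappa B, was at 51.5, 49.3, 43 and 49.2 CPM in CNTF and 10.3, 12.1, 11.4 and 2.66 CPM in 1% FBS, with the 4 CNTF libraries alike (2.40 ± 0.32, adjusted p 3.7e-05). SPONT was far lower for both, with means of 6.34 and 0.706 CPM. The protease inhibitor Timp1 was at 13.3, 11.6, 14.7 and 12.5 CPM in CNTF and 5.88, 6.45, 4.73 and 3.01 CPM in 1% FBS (1.37), and the serpin Serpina3n at 607, 629, 625 and 641 CPM in CNTF and 290.1, 431, 375 and 219 CPM in 1% FBS (0.92). The inhibitor A2m was at 822, 844, 859 and 834 CPM in CNTF and 452, 656, 422 and 407 CPM in 1% FBS (0.79) and the transcription factor Cebpd at 236 to 258 CPM in CNTF and 133.9 to 180.2 CPM in 1% FBS (0.65). None of these 4 had overlapping groups, and for each the mean of SPONT was below that of 1% FBS. The kinase Pim3 was lower in CNTF (-0.78), and Cish, which blocks STAT5, was at the same level in both, at 7.02 to 8.74 CPM in CNTF and 7.05 to 9.6 CPM in 1% FBS (-0.07, adjusted p 0.627). With 1 library left out, it ran from -0.14 without 1% FBS replicate 4 to 0.025 without 1% FBS replicate 3. Gfap belongs to this list and was one of the 9 that were not called, but the groups were chosen by its level. With CNTF replicates 1 and 2 alone 6 of the list were higher and 2 lower, and without 1% FBS replicate 4, 10 were higher and 4 lower.

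Part of that list is also immediate early, and there the CNTF libraries disagreed. Among immediate early and serum-response genes, 24 of 24 members were tested, 9 were higher and 1 lower in CNTF, and 14 were not called, with a median log2FC of 0.31. With CNTF replicates 1 and 2 alone 4 were higher and 2 lower. Fos was at 168.4, 170.7, 419 and 461 CPM in CNTF and 108, 123, 137 and 145 CPM in 1% FBS. CNTF replicates 1 and 2 were just above the highest 1% FBS library, and replicates 3 and 4 more than 2 times higher than it (log2FC 1.24 ± 0.28, edgeR's adjusted p 0.00229, 3.5e-04 to 0.0137 over all alternatives). With CNTF replicates 1 and 2 alone it was 0.39 and not called. Junb was at 96, 97.1, 202 and 215 CPM in CNTF and 65.5, 78.4, 96.3 and 84.5 CPM in 1% FBS, with overlap of the groups (0.90, edgeR's adjusted p 0.00629, 0.00105 to 0.176 over all alternatives). It was 0.23 with CNTF replicates 1 and 2 alone. Its call was also lost without CNTF replicate 3 (adjusted p 0.0253), CNTF replicate 4 (0.0238), 1% FBS replicate 1 (0.0209) or 1% FBS replicate 2 (0.0158), and with DESeq2 on all libraries (0.0121). In the same order, the log2FC of Junb was then 0.73, 0.69, 0.82, 0.89 and 0.92. Egr1 was at 30.2, 36.6, 199 and 231 CPM in CNTF and 49.5, 44.8, 65.5 and 111 CPM in 1% FBS. CNTF replicates 1 and 2 were below, and 3 and 4 above, all 1% FBS libraries (log2FC 0.87, edgeR's adjusted p 0.19). With CNTF replicates 1 and 2 alone it was -1.03 and not called, and it was 0.55 without replicate 3 and 0.39 without replicate 4. Jun was called with all libraries (0.78) and with CNTF replicates 1 and 2 alone (0.38). What set replicates 3 and 4 apart was not tested.

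Genes that reactive astrocytes share whatever the injury gave 13 tested of 13, 6 higher, 1 lower and 6 not called, median log2FC 0.55. The sphingosine receptor S1pr3 was at 742, 751, 673 and 742 CPM in CNTF and 145, 194.1, 170.7 and 87.1 CPM in 1% FBS; the lowest CNTF library had more than 3 times the highest 1% FBS library (log2FC 2.27 ± 0.19, edgeR's adjusted p 6.3e-07). Vim, the second filament of reactive astrocytes, was at 5713, 5654, 6061 and 5658 CPM in CNTF and 1918, 2286, 2248 and 2155 CPM in 1% FBS (1.42 ± 0.07, adjusted p 5.7e-09). On the scale of FPKM, Vim stood at 1217 ± 41 (SD, n = 4) beside 5236 ± 95.5 for Gfap in CNTF, and at 454 ± 34.8 beside 4407 ± 616 in 1% FBS. The chemokine Cxcl10 was the 1 gene of the list that was lower, at 1.08 to 1.7 CPM in CNTF and 2.42 to 5.53 CPM in 1% FBS (-1.39). Several well-known members were not called. Lcn2, a secreted iron carrier, was at 61.5, 58.9, 62.1 and 58.5 CPM in CNTF and 47.8, 58.2, 39.2 and 13.6 CPM in 1% FBS; the groups did not overlap, but 1% FBS replicate 2 nearly reached CNTF and replicate 4 was far below (0.59, adjusted p 0.106). Without replicate 4 the log2FC was 0.31. Cd44, a receptor for hyaluronan, was at 126 to 139.7 CPM in CNTF and 112 to 141 CPM in 1% FBS (0.02, from -0.047 without 1% FBS replicate 4 to 0.065 without 1% FBS replicate 1). Both Lcn2 and Cd44 were lower in SPONT, with means of 4.05 and 71.1 CPM.

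Of the genes linked to the A1 state, which follows inflammation, 12 of 13 members were tested, 5 were higher and 1 lower in CNTF, and 6 were not called, with a median log2FC of 0.39. Serping1, an inhibitor of the first complement component, was at 11, 11, 13 and 11.2 CPM in CNTF and 1.73, 2.7, 1.84 and 1.58 CPM in 1% FBS (2.56), Ggta1, a sugar transferase, at 66.9 to 72 CPM in CNTF and 24.6 to 40.7 CPM in 1% FBS (1.03), and Gbp2, a GTPase of the interferon response, at 85.4 to 93.4 CPM in CNTF and 40.4 to 50.9 CPM in 1% FBS (0.92). The matrix protein Fbln5 went the other way at 6.27 to 7.43 CPM in CNTF and 26 to 44.5 CPM in 1% FBS (-2.32). C3, the complement component most used as a marker of this state, was at 515, 495, 501 and 507 CPM in CNTF and 516, 569, 466 and 266 CPM in 1% FBS and was not called (0.14, edgeR's adjusted p 0.511). By far the lowest was 1% FBS replicate 4, without which the log2FC was -0.04. It was 0.27 without 1% FBS replicate 2 and 0.21 without replicate 1. Genes of the A2 state, which follows ischaemia, were split: 12 tested of 12, 5 higher, 4 lower and 3 not called, median log2FC 0.33. Cd14 (1.66), Clcf1, Tm4sf1 (1.43) and S100a10 (0.83) were among the higher. The transglutaminase Tgm1 at 0.374 to 0.556 CPM in CNTF and 2.49 to 5.78 CPM in 1% FBS (-3.34) and the pentraxin Ptx3 at 9.72 to 10.6 CPM in CNTF and 15.3 to 29.8 CPM in 1% FBS (-1.33) were lower.

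Complement components and regulators gave 13 tested of 20, 5 higher, 2 lower and 6 not called, median log2FC 0.37. C4b, which is cut in the classical and lectin pathways, was at 159.2, 148, 148 and 148 CPM in CNTF and 20.9, 33.8, 24.3 and 16.3 CPM in 1% FBS, more than 4 times higher in the lowest CNTF library than in the highest 1% FBS library (log2FC 2.65 ± 0.17, edgeR's adjusted p 5.9e-08). The inhibitor Cd55 was at 4.28 to 5.63 CPM in CNTF and 0.54 to 0.909 CPM in 1% FBS (2.75), and the secreted chaperone Clu at 3182, 3059, 3307 and 3267 CPM in CNTF and 2076, 2502, 2116 and 1894 CPM in 1% FBS (0.57). The lower genes were C1s1 (-0.75) and C1ra (-0.62), the proteases of the first component. The count of lower genes fell from 2 to 1 without CNTF replicate 1 (C1s1 lost, -0.74), CNTF replicate 2 (C1ra lost, -0.63) or 1% FBS replicate 2 (C1ra lost, -0.61) and to 0 without 1% FBS replicate 1 or CNTF replicate 3. C1ra was also not called without 1% FBS replicate 3 (-0.59) or CNTF replicate 4 (-0.55). Among MHC class I and interferon-response genes, 29 of 30 members were tested, 10 were higher and 3 lower in CNTF, and 16 were not called, with a median log2FC of 0.25. The peptide transporter Tap1 was at 18.9 to 19.7 CPM in CNTF and 12.2 to 14.5 CPM in 1% FBS (0.55), its partner Tapbp rose too (0.53), and the proteasome subunit Psmb9 was at 2.32 to 3.56 CPM in CNTF and 0.88 to 1.22 CPM in 1% FBS (1.38). B2m, the light chain of MHC class I, was at 136 to 148 CPM in CNTF and 125 to 148 CPM in 1% FBS and was not called. Ifit3, an interferon-induced gene, was lower, at 0.742 to 1.22 CPM in CNTF and 3.21 to 5.8 CPM in 1% FBS (-2.14). Chemokines and inflammatory mediators gave 14 tested of 20, 2 higher, 4 lower and 8 not called, median log2FC -0.44. Here Cx3cl1, a chemokine bound to the membrane, was at 145, 147, 136 and 149 CPM in CNTF and 273, 250.1, 237 and 262 CPM in 1% FBS (-0.83 ± 0.05). The alarmin Il33 was at 3.75 to 4.13 CPM in CNTF and 6.57 to 12.3 CPM in 1% FBS (-1.30), both without overlap, and Cxcl14 went the other way at 5.43 to 6.53 CPM in CNTF and 1.64 to 2.37 CPM in 1% FBS (1.62). Il1b, Tnf and Cxcl2 had no count in any of the 8 libraries.

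The next question is how far each culture carried the genes of resting astrocytes. For a list of functional genes of healthy astrocytes, 44 of 45 members were tested, 4 were higher and 31 lower in CNTF, and 9 were not called, with a median log2FC of -0.69. Slc1a2, the main glutamate transporter of the adult brain, was at 62.4, 62.7, 57.8 and 65.2 CPM in CNTF and 455, 349, 321 and 482 CPM in 1% FBS (log2FC -2.70 ± 0.11, edgeR's adjusted p 1.1e-09). Slc1a3, the transporter expressed earlier, was at 314, 374, 365 and 391 CPM in CNTF and 793, 778, 674 and 1002 CPM in 1% FBS (-1.17 ± 0.10). No CNTF library reached any 1% FBS library for these 2 genes. The bicarbonate transporter Slc4a4 was at 33, 36.6, 38.2 and 39.8 CPM in CNTF and 288, 259, 217 and 226 CPM in 1% FBS (-2.75), and the phospholipase Pla2g7 at 202, 194.4, 223 and 202 CPM in CNTF and 1007, 994, 1082 and 1231 CPM in 1% FBS (-2.40). The gap junction gene Gja1 was at 325, 367, 347.5 and 381 CPM in CNTF and 1020.5, 1080.2, 945 and 1176 CPM in 1% FBS (-1.58). Glutamine synthetase, Glul, was lower by less (-0.76). The 4 higher in CNTF included Clu and Nfia, a transcription factor that starts gliogenesis, at 381 to 405 CPM in CNTF and 217 to 288 CPM in 1% FBS (0.67). Apoe, a lipid carrier, was at 12869, 11667, 13813 and 12029 CPM in CNTF and 14699, 13778, 14742 and 17668 CPM in 1% FBS. Its groups overlapped, and its call (-0.28, adjusted p 0.00964) was lost without any 1 of CNTF replicates 1, 2 and 4 and 1% FBS replicates 1, 3 and 4 (adjusted p 0.0106 to 0.0378). With the replicate block (-0.28, edgeR's adjusted p 0.0116), DESeq2 size factors in edgeR (-0.27, 0.0112) and the filter at 1 CPM in 4 libraries (-0.26, 0.0159) Apoe was not called either. Without 1% FBS replicate 4 the list gave 4 higher and 32 lower, and with CNTF replicates 1 and 2 alone 3 and 28.

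For 5 of these genes the levels in SPONT are set beside those of CNTF and 1% FBS. Slc4a4 was at 215 ± 70 CPM (SD, n = 4) in SPONT, Pla2g7 at 818 ± 123 and Gja1 at 831 ± 188.2, each mean above that of CNTF and below that of 1% FBS. Slc1a2 was at 180.1 ± 31.2 and Slc1a3 at 512 ± 141, again between the groups. So for these 5 genes the mean was lower with CNTF, and higher with 1% FBS, than with neither. For Slc4a4, however, SPONT replicate 1 was at 314 CPM, above all 1% FBS libraries (217 to 288). Whether CNTF or serum differed from SPONT was not tested here. Host astrocytes had 10273 CPM of Slc1a2, so both cultures were far below the tissue for this gene.

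A wider panel of healthy astrocyte genes was read from a text copy of a supplementary table of the study, in which some names are misread. That copy holds fewer names than the panel is said to have. It gave 428 different names, of which 400 were matched. Of these, 381 were tested, 47 were higher, 202 lower and 132 not called, with a median log2FC of -0.39. The share called lower was thus larger than the 22.7% of all tested genes, and the share called higher smaller than the 18.9%. The panel and the list above share members. Without 1% FBS replicate 4 the panel gave 55 higher and 201 lower. Metallothioneins and zinc transporters, which astrocytes make in quantity to hold zinc and copper, gave 6 tested of 7, 0 higher, 5 lower and 1 not called, median log2FC -1.04. Mt1 was at 1283, 1179.8, 1349 and 1289.8 CPM in CNTF and 2680.4, 2638, 2454 and 2908 CPM in 1% FBS (-1.07 ± 0.06). Mt2 was at 605 to 661 CPM in CNTF and 1117 to 1560 CPM in 1% FBS (-1.08), Mt3 at 798 to 958 CPM in CNTF and 1534 to 2229 CPM in 1% FBS (-1.001) and the exporter Slc30a10 at 4.54 to 5.93 CPM in CNTF and 23.9 to 26.4 CPM in 1% FBS (-2.24), all without overlap. SPONT had 1434 CPM of Mt1, close to CNTF, and 27.3 of Slc30a10, close to 1% FBS. The metallothionein genes lie side by side and resemble each other, so reads they share cannot be told apart.

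**Figure D2:**
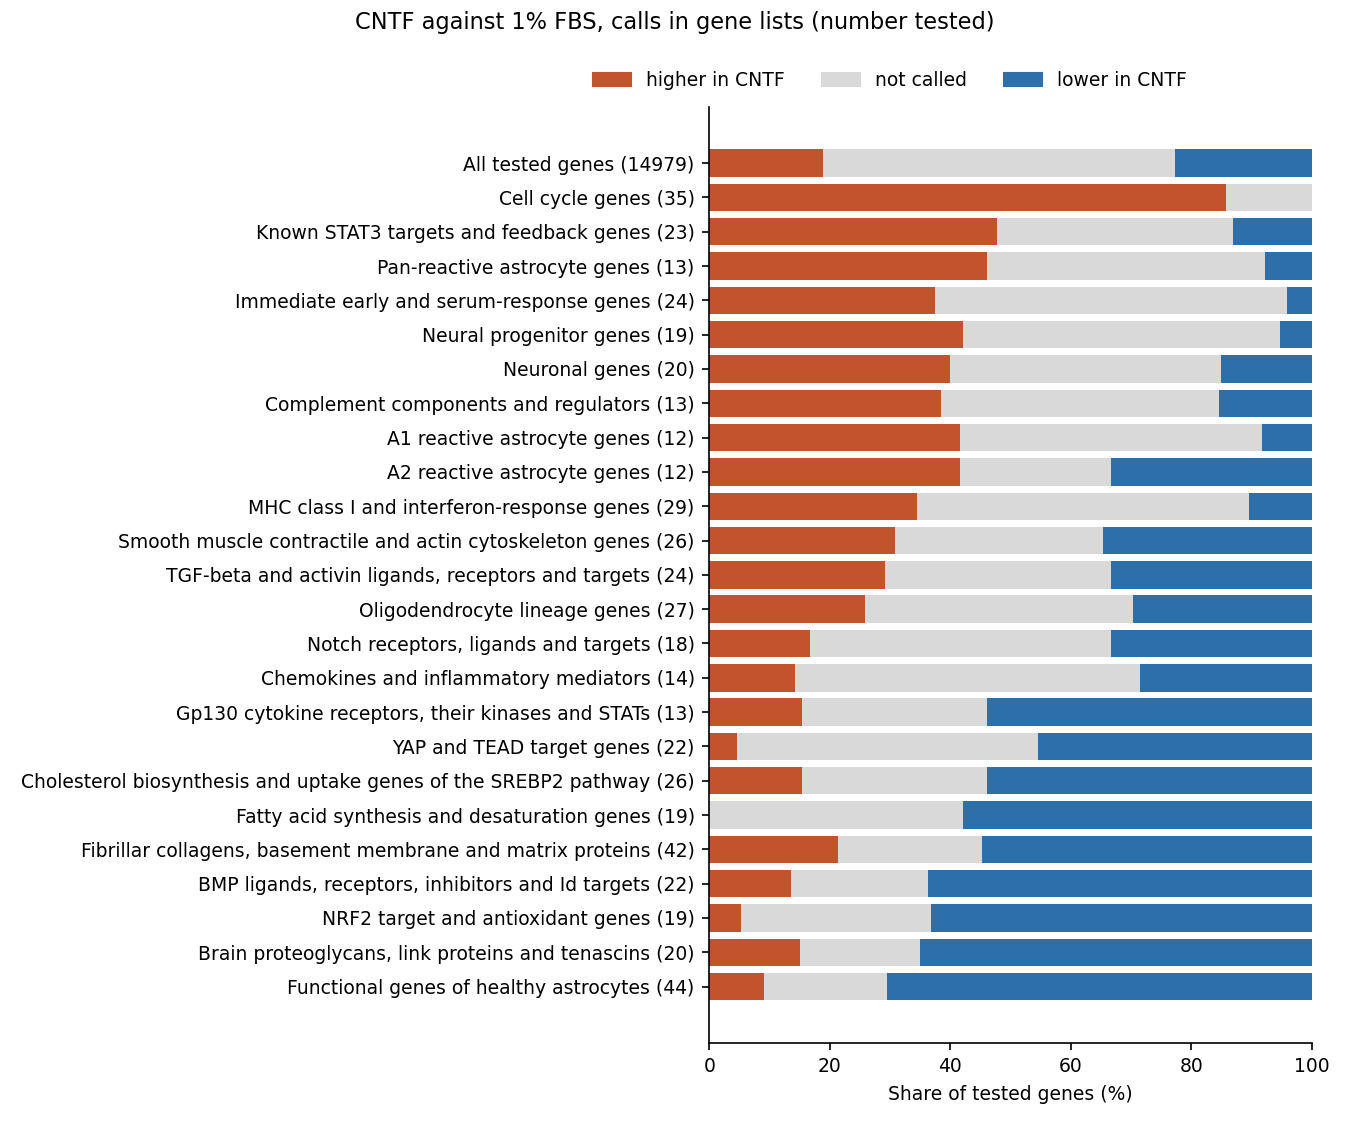
Share of the tested members of 24 gene lists that were higher in CNTF, not called, or lower in CNTF, with the numbers tested in brackets and the shares over all 14979 tested genes in the top bar. Cell cycle genes were mostly higher in CNTF, and genes of healthy astrocytes, BMP signalling, matrix and proteoglycans mostly lower.

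For intermediate filaments of glia and progenitors, 8 of 10 members were tested, 5 were higher and 1 lower in CNTF, and 2 were not called, with a median log2FC of 0.77. Nes, the filament of progenitors, was at 507, 448, 449 and 461 CPM in CNTF and 204, 252, 192.4 and 277 CPM in 1% FBS (1.01 ± 0.10). Prph, a filament of peripheral neurons, was at 16.5, 15.8, 15.3 and 15.6 CPM in CNTF and 1.01, 1.06, 1.59 and 0.542 CPM in 1% FBS (3.91 ± 0.23, edgeR's adjusted p 2.3e-08). Krt8, a keratin, was at 9.97, 9.33, 10.7 and 10.5 CPM in CNTF and 1.06, 1.77, 1.24 and 0.718 CPM in 1% FBS (3.09 ± 0.21, adjusted p 9.6e-08). For both the lowest CNTF library was more than 5 times the highest 1% FBS library. Krt18, the usual partner of Krt8, did not pass the filter, at means of 0.0919 and 0.0228 CPM. Synm, which links filaments to the membrane, was lower, at 12.3 to 15.4 CPM in CNTF and 30.5 to 44.4 CPM in 1% FBS (-1.37).

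Serum carries signals for contraction and matrix. Among smooth muscle contractile and actin genes, 26 of 27 members were tested, 8 were higher and 9 lower in CNTF, and 9 were not called, with a median log2FC of 0.07. Acta2, smooth muscle actin, was at 2.16, 2.14, 1.97 and 2.79 CPM in CNTF and 39.2, 22.9, 11.2 and 9.69 CPM in 1% FBS. All 1% FBS libraries were above CNTF, but they spread 4-fold among themselves, with replicates 1 and 2 highest (log2FC -3.20 ± 0.39, edgeR's adjusted p 1.6e-05). Tagln, a calponin-like protein, was at 1.92, 2.26, 1.18 and 1.45 CPM in CNTF and 25, 10.6, 6.3 and 7.65 CPM in 1% FBS with the same 2 libraries highest (-2.86 ± 0.39). The mean of Acta2 was 1.52 CPM in SPONT, near CNTF, and 248 in 5% FBS and 2503 in 20% FBS. Other members went the other way. Tagln2 was at 133.9, 136, 150.4 and 151 CPM in CNTF and 46.9, 46.5, 45.8 and 41.7 CPM in 1% FBS (1.65 ± 0.07), tropomyosin Tpm4 at 201 to 208 CPM in CNTF and 100.4 to 123 CPM in 1% FBS (0.83), and the crosslinker Actn1 at 122 to 142 CPM in CNTF and 75.3 to 86.2 CPM in 1% FBS (0.65). Actb, the main actin, was at 7199.9 to 7702 CPM in CNTF and 4978 to 5292 CPM in 1% FBS (0.54). For YAP and TEAD targets, 22 of 23 members were tested, 1 was higher and 10 lower in CNTF, and 11 were not called, with a median log2FC of -0.37. Without 1% FBS replicate 2, 2 were called higher. Ccn2, the best known, was at 2.73, 3.44, 4.43 and 4.75 CPM in CNTF and 34.4, 28.3, 12.2 and 14.2 CPM in 1% FBS (-2.55 ± 0.30), with no overlap and again with 1% FBS replicates 1 and 2 highest. Ccn1, its close relative, was at 40.6, 39, 59.2 and 64.5 CPM in CNTF, with replicates 3 and 4 high, against 59.3 to 63.7 in 1% FBS. It was not called (-0.27), and was lower with CNTF replicates 1 and 2 alone (-0.63). Without CNTF replicate 1 it was -0.17 and without CNTF replicate 2 -0.16.

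Matrix genes were called in both directions. Fibrillar collagens, basement membrane and matrix proteins gave 42 tested of 43, 9 higher, 23 lower and 10 not called, median log2FC -0.46. Genes of collagen fibres and elastin were among the lower. Col1a1, the main fibrous collagen, was at 2.89, 4.16, 4.22 and 3.95 CPM in CNTF and 52.1, 42.9, 13.9 and 10 CPM in 1% FBS (-2.98 ± 0.45, edgeR's adjusted p 9.6e-05). Col3a1 was at 5.37, 5.58, 5.74 and 6.35 CPM in CNTF and 56.9, 23.9, 10.5 and 8.83 CPM in 1% FBS (-2.12 ± 0.46, adjusted p 0.0017), and its log2FC was -1.32 without 1% FBS replicate 1. Eln, or elastin, was at 33.7, 33.3, 33.2 and 35.7 CPM in CNTF and 358, 248, 247 and 148 CPM in 1% FBS (-2.89 ± 0.20). The crosslinking enzyme Lox was at 0.107, 0.311, 0.145 and 0.294 CPM in CNTF and 8.47, 2.96, 0.949 and 1.37 CPM in 1% FBS (-4.01) and the adhesion protein Postn at 0.326 to 0.442 CPM in CNTF and 1.76 to 9.9 CPM in 1% FBS (-3.58). For Col1a1, Col3a1, Lox and Postn the 1% FBS replicates 1 and 2 were the high ones, and for Eln replicate 1. Genes of collagen VI were among the higher. Col6a2 was at 142, 138, 126 and 142 CPM in CNTF and 51.4, 34.9, 30.5 and 15.4 CPM in 1% FBS (2.04 ± 0.25), and its partner chain Col6a1 at 102.4, 111, 94.3 and 114 CPM in CNTF and 44.7, 34.2, 32.2 and 16.6 CPM in 1% FBS (1.71 ± 0.21). Thrombospondin Thbs2 was at 31.5 to 38.1 CPM in CNTF and 4.91 to 10.6 CPM in 1% FBS (2.04) and fibronectin Fn1 at 202 to 216 CPM in CNTF and 117 to 181 CPM in 1% FBS (0.48). Without 1% FBS replicate 4 the list gave 10 higher and 24 lower. Col3a1 and Fn1 lost their calls with CNTF replicates 1 and 2 alone (-2.20 and 0.48). Pericyte and fibroblast markers moved with these genes: 9 of 10 members were tested, 2 were higher and 5 lower in CNTF, and 2 were not called, with a median log2FC of -2.03. Their summed level was 48.6, 49.8, 48.5 and 47.2 CPM in CNTF and 138, 90.4, 41.8 and 31 CPM in 1% FBS. In CNTF, Kcnj8 was the most abundant of them, with means of 36.9 CPM in CNTF and 10.8 in 1% FBS. The higher count was 1 without CNTF replicate 4. Pdgfrb, a receptor of pericytes, was at 0.374, 0.196, 0.0905 and 0.261 CPM in CNTF and 9.85, 5.33, 3.9 and 2.32 CPM in 1% FBS (-4.48). The channel gene Kcnj8 was higher in CNTF, at 34.5 to 38.5 CPM in CNTF and 7.38 to 14.3 CPM in 1% FBS (1.76). Dcn, a proteoglycan of fibroblasts, was not called by edgeR (-1.46, adjusted p 0.0168). It was called lower by DESeq2 (adjusted p 0.00255), by edgeR with no filter (0.00855) and without 1% FBS replicate 4 (-1.74). It was -0.96 without 1% FBS replicate 1. The part of such cells in the matrix result was not tested.

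Brain proteoglycans, link proteins and tenascins gave 20 tested of 23, 3 higher, 13 lower and 4 not called, median log2FC -0.46. Bcan, or brevican, was at 702, 659, 654 and 671 CPM in CNTF and 1144, 985, 1229 and 1262 CPM in 1% FBS (-0.79 ± 0.07). Versican Vcan was at 132 to 155 CPM in CNTF and 209 to 314 CPM in 1% FBS (-0.92), Tnr at 25 to 32.7 CPM in CNTF and 48.1 to 81.9 CPM in 1% FBS (-1.14) and Acan, the main proteoglycan of perineuronal nets, at 0.261 to 0.605 CPM in CNTF and 3.61 to 4.24 CPM in 1% FBS (-3.39). Matrix proteases and their inhibitors gave 20 tested of 25, 4 higher, 6 lower and 10 not called, median log2FC -0.18. The inhibitors Timp1, Timp2 (0.55) and Timp3 (0.51) were higher in CNTF, and the plasminogen activator Plat (-0.46) and Serpine2 (-0.40) lower. TGF-beta and activin genes were split, 24 tested of 25, 7 higher, 8 lower and 9 not called, median log2FC -0.04. The ligand Tgfb1 was at 4.54 to 5.19 CPM in CNTF and 1.67 to 2.21 CPM in 1% FBS (1.35) and the ligand-binding protein Ltbp2 at 0.098 to 0.217 CPM in CNTF and 1.43 to 2.56 CPM in 1% FBS (-3.67), while the target Smad7 was not called (-0.28). EMT transcription factors and cadherins gave 13 tested of 14, 1 higher, 6 lower and 6 not called, median log2FC -0.43. Snai1, which represses cadherin, was at 0.909, 1.21, 1.03 and 0.98 CPM in CNTF and 5.35, 2.89, 2.4 and 2.77 CPM in 1% FBS (-1.71 ± 0.25), but Twist1 (0.09) and Zeb1 (-0.16) were not called. The value of Twist1 was 0.038 without 1% FBS replicate 2 and 0.18 without 1% FBS replicate 4. An EMT panel from the same text copy, which is also incomplete, gave 196 names, 2 of them without a match. It had 37 genes higher, 70 lower and 68 not called, median log2FC -0.19. Of it, 40 were higher and 73 lower without 1% FBS replicate 4.

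BMP genes were lower in CNTF in most cases. For BMP ligands, receptors, inhibitors and Id targets, 22 of 24 members were tested, 3 were higher and 14 lower in CNTF, and 5 were not called, with a median log2FC of -0.88. The lower count was also 14 without 1% FBS replicate 4. The Id genes, direct targets of SMAD proteins that hold back differentiation, were all lower in CNTF. Id1 was at 83.9, 75.5, 84.7 and 78.2 CPM in CNTF and 170.9, 190.4, 191 and 181 CPM in 1% FBS (-1.19 ± 0.07, edgeR's adjusted p 1.6e-08). Id2 was at 126, 133.6, 144 and 148 CPM in CNTF and 297, 289, 298 and 326 CPM in 1% FBS (-1.14 ± 0.06). Id3 was at 139, 141, 189 and 174.6 CPM in CNTF and 227, 226, 250.2 and 246 CPM in 1% FBS (-0.57 ± 0.10). The groups did not overlap in any of these 3. Id4 was at 70.3, 69.9, 69.9 and 74.5 CPM in CNTF and 215, 167.3, 177 and 229.6 CPM in 1% FBS (-1.48 ± 0.08). Its span overlaps that of the gene model A330033J07Rik, and unstranded counts might not separate them. The ligand Bmp4 was at 10.7, 9.46, 10.1 and 11.5 CPM in CNTF and 39.1, 27.6, 42.1 and 18.3 CPM in 1% FBS (-1.62). The inhibitory Smad6 was at 2.81 to 3.25 CPM in CNTF and 6.56 to 8.6 CPM in 1% FBS (-1.31) and the signalling Smad9 at 0.181 to 0.425 CPM in CNTF and 2.14 to 4.28 CPM in 1% FBS (-3.48). Id1 in SPONT was at 139 ± 36.8 CPM, between the groups, and in 20% FBS at 506 ± 30.6.

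Most cell cycle genes had more RNA in CNTF cultures, and the share of dividing cells was not measured here. Of the cell cycle genes 35 of 35 members were tested, 30 were higher and 0 lower in CNTF, and 5 were not called, with a median log2FC of 0.66. The higher count was 30 without 1% FBS replicate 4 and 24 with CNTF replicates 1 and 2 alone. Mki67, a marker of cycling cells, was at 97.7, 93.9, 100.2 and 103 CPM in CNTF and 34.5, 62.9, 46.4 and 40.5 CPM in 1% FBS (1.09 ± 0.14, edgeR's adjusted p 2.8e-05). The topoisomerase Top2a was at 158.6, 157.8, 155 and 158.7 CPM in CNTF and 98, 111, 77.3 and 76.2 CPM in 1% FBS (0.79), the replication helicase Mcm7 at 146 to 157.8 CPM in CNTF and 74.1 to 84 CPM in 1% FBS (0.95) and the kinase of mitosis Cdk1 at 56.7 to 61.5 CPM in CNTF and 31 to 40.7 CPM in 1% FBS (0.74). Ccnd1, which drives entry into the cycle, was at 329, 319, 292 and 313 CPM in CNTF and 134.1, 167.9, 115 and 161 CPM in 1% FBS (1.11 ± 0.09). NPC P15 had 147 CPM of Mki67 and SPONT 37.3, so 1% FBS was near SPONT and CNTF between SPONT and the undifferentiated cells. Cyclin-dependent kinase inhibitors and p53 targets gave 12 tested of 12, 3 higher, 3 lower and 6 not called, median log2FC 0.02. Cdkn1a, or p21, was at 172.2, 163, 168.3 and 172.4 CPM in CNTF and 234, 218, 292 and 320.0 CPM in 1% FBS (-0.66 ± 0.10). Cdkn1c, or p57, was at 70, 64.2, 67.3 and 66.2 CPM in CNTF and 26.5, 28.1, 23.8 and 25.4 CPM in 1% FBS (1.36 ± 0.06), in the opposite direction. Neural progenitor genes gave 19 tested of 19, 8 higher, 1 lower and 10 not called, median log2FC 0.29, among them Nes, Sox2 (0.33), the Notch ligand Dll1 at 106 to 142 CPM in CNTF and 51.5 to 86.5 CPM in 1% FBS (0.87) and Prom1 (0.99). The 1 lower, Egfr (-0.38), became 2 without 1% FBS replicate 4, 3 without 1% FBS replicate 3 and 0 without CNTF replicate 1. Egfr itself was also not called without CNTF replicate 2 (-0.37). Cytosolic ribosomal protein genes barely differed by edgeR, 30 tested of 30, 0 higher, 1 lower and 29 not called, median log2FC 0.10. At an unadjusted p below 0.05, 9 were higher, and DESeq2 called 4. The higher count was 7 without 1% FBS replicate 4 and 1 without CNTF replicate 4, and the lower count was 0 without any 1 of 1% FBS replicates 1, 3 and 4 and CNTF replicates 2, 3 and 4.

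The oligodendrocyte lineage did not move one way. Its list gave 27 tested of 27, 7 higher, 8 lower and 12 not called, median log2FC -0.09, and 10 higher and 12 lower without 1% FBS replicate 4. Sox10, the transcription factor of the lineage, was at 57.7, 55.1, 55.2 and 64.6 CPM in CNTF and 17.4, 12.3, 16.8 and 6.06 CPM in 1% FBS (2.14 ± 0.24, edgeR's adjusted p 9.5e-06), and Pdgfra, the receptor of its progenitors, at 160.0 to 181 CPM in CNTF and 119.4 to 136 CPM in 1% FBS (0.40). Gpr17, a receptor of the stage between progenitor and myelinating cell, was at 411, 440.1, 398 and 466 CPM in CNTF and 1921, 1653, 1733 and 1036 CPM in 1% FBS (-1.90 ± 0.15, adjusted p 4.8e-07), and lost its call in the fit of all 8 differentiation groups (-1.88, adjusted p 0.0146). The span of Gpr17 overlaps that of Lims2, which was lower as well (-1.53), and unstranded counts might not separate them. Mbp, a main protein of myelin, was at 259.7, 276, 303 and 308 CPM in CNTF and 200.1, 156, 238 and 60 CPM in 1% FBS, with 1% FBS replicate 4 low and no overlap. It was not called with all libraries (0.79, edgeR's adjusted p 0.034) and was called higher without 1% FBS replicate 3 (1.05) or replicate 4 (0.52). Over all alternatives its adjusted p was 8.6e-04 to 0.186. SPONT had 1582 CPM of Gpr17, as 1% FBS did, and 43.6 of Sox10, nearer to CNTF. Neuronal genes were low in most cases, with 20 tested of 26, 8 higher, 3 lower and 9 not called, median log2FC 0.40. The neuronal tubulin Tubb3 was at 231, 220.3, 229.7 and 222 CPM in CNTF and 115, 98.7, 101.6 and 93.7 CPM in 1% FBS (1.13 ± 0.07). Rbfox3 was at 27.4, 27.3, 23.9 and 24.6 CPM in CNTF and 9.67, 10.7, 8.91 and 9.32 CPM in 1% FBS (1.41 ± 0.08) and the growth cone gene Gap43 at 144 to 157.8 CPM in CNTF and 49.9 to 63.1 CPM in 1% FBS (1.37), all higher in CNTF without overlap, while Map2 (-0.46) and Mapt (-0.53), which glia also make, were lower. Mapt lost its call in the fit of all 8 groups (-0.51, adjusted p 0.115) and Map2 with CNTF replicates 1 and 2 alone (-0.44, adjusted p 0.0239), with log2FC that changed little.

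Among Notch receptors, ligands and targets, 18 of 18 members were tested, 3 were higher and 6 lower in CNTF, and 9 were not called, with a median log2FC of -0.04. The receptor Notch3 was at 34.5 to 42.3 CPM in CNTF and 62.6 to 77 CPM in 1% FBS (-0.82) and the target Hey1 at 52.5 to 56.7 CPM in CNTF and 82.3 to 103.6 CPM in 1% FBS (-0.79). Hes1, another target, was higher, at 44.4 to 53.4 CPM in CNTF and 28 to 34.7 CPM in 1% FBS (0.54). Dlk1, a ligand-like protein, was at 0.909, 0.605, 0.434 and 0.735 CPM in CNTF and 16, 10.4, 10.1 and 9.15 CPM in 1% FBS (-4.07 ± 0.23). Without 1% FBS replicate 4, 6 of the list were called higher and 6 lower. The insulin-like growth factor axis gave 13 tested of 13, 3 higher, 5 lower and 5 not called, median log2FC -0.26. Igf2 was at 20.3, 19.5, 19.7 and 19.4 CPM in CNTF and 1.62, 1.77, 1.26 and 1.11 CPM in 1% FBS, more than 10 times higher in each CNTF library than in any 1% FBS library (3.78 ± 0.14, edgeR's adjusted p 4.3e-10), and its scavenger receptor Igf2r was higher too (1.06). Irs2, the adaptor behind the receptors, was lower, at 10.4 to 16 CPM in CNTF and 27.5 to 52.3 CPM in 1% FBS (-1.72). Growth factors and receptors gave 25 tested of 27, 2 higher, 10 lower and 13 not called, median log2FC -0.14. Gdnf, a survival factor of neurons, was higher, at 1.36 to 1.92 CPM in CNTF and 0.243 to 0.39 CPM in 1% FBS (2.42), as was Pdgfa, a mitogen of oligodendrocyte progenitors, at 25.4 to 27.5 CPM in CNTF and 12.9 to 17.8 CPM in 1% FBS (0.81). Fgf1 at 13.4 to 15.5 CPM in CNTF and 35.6 to 63.3 CPM in 1% FBS (-1.69) and the receptor Met at 15 to 16.3 CPM in CNTF and 28.6 to 48.9 CPM in 1% FBS (-1.41) were lower. Retinoid and thyroid hormone genes gave 16 tested of 20, 3 higher, 8 lower and 5 not called, median log2FC -0.81, with Aldh1a1, which makes retinoic acid, at 28.9, 30.3, 30.4 and 29.3 CPM in CNTF and 129, 161, 116 and 177 CPM in 1% FBS (-2.30 ± 0.10).

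Genes that make cholesterol and fatty acids were more often lower than higher in CNTF. Cholesterol synthesis and uptake genes of the SREBP2 pathway gave 26 tested of 26, 4 higher, 14 lower and 8 not called, median log2FC -0.30. Hsd17b7, which acts late in the synthesis, was at 14, 15.7, 13.9 and 15.4 CPM in CNTF and 42.8, 50.3, 35.5 and 38.1 CPM in 1% FBS (-1.51 ± 0.10). Hmgcs1 (-0.57) and Msmo1 (-0.83) were lower as well. Cholesterol efflux and LXR target genes gave 12 tested of 12, 3 higher, 4 lower and 5 not called, median log2FC -0.17, and the lower count was 1 without CNTF replicate 2, CNTF replicate 4 or 1% FBS replicate 1 and 2 without CNTF replicates 1 or 3 or 1% FBS replicates 2 or 3. Lcat, which esterifies cholesterol in lipoproteins, was at 23.6, 24, 22.6 and 21.2 CPM in CNTF and 106, 87, 99.6 and 126.7 CPM in 1% FBS (-2.20 ± 0.09). The lipid regulator Srebf1 went the other way, at 578 to 632 CPM in CNTF and 355 to 421 CPM in 1% FBS (0.68). For fatty acid synthesis and desaturation, 19 of 19 members were tested, 0 were higher and 11 lower in CNTF, and 8 were not called, with a median log2FC of -0.32, with Acsl3 (-0.94), Scd1 (-0.58) and Scd2 (-0.40) among the lower, and 1 higher without 1% FBS replicate 3. Fatty acid oxidation and PPAR targets gave 16 tested of 16, 2 higher, 7 lower and 7 not called, median log2FC -0.22, and 1 higher without any 1 of 1% FBS replicates 1 and 3 and CNTF replicates 2, 3 and 4. The receptor Ppara was at 2.57 to 3.38 CPM in CNTF and 8.21 to 9.96 CPM in 1% FBS (-1.56). The lipase inhibitor Angptl4 was at 17.8, 19.7, 20.5 and 16.9 CPM in CNTF and 1.4, 2.55, 2.5 and 2.48 CPM in 1% FBS (3.06 ± 0.16, edgeR's adjusted p 1.2e-08). Glycolysis and hypoxia-response genes showed no lean, 21 tested of 23, 4 higher, 5 lower and 12 not called, median log2FC -0.09.

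Of NRF2 target and antioxidant genes, 19 of 19 members were tested, 1 was higher and 12 lower in CNTF, and 6 were not called, with a median log2FC of -0.41. The 1 higher gene was not called without any 1 library other than 1% FBS replicate 4. Slc7a11, the cystine importer, was at 16.2, 16.6, 16.8 and 16.7 CPM in CNTF and 83.8, 87.2, 80.2 and 115 CPM in 1% FBS (-2.47 ± 0.09, edgeR's adjusted p 6.8e-10). Gclc, the first enzyme of glutathione synthesis, was at 36.5, 39.6, 36.8 and 40 CPM in CNTF and 93.7, 91.7, 76.4 and 98 CPM in 1% FBS (-1.24 ± 0.07). The transferase Gstm1 was at 294 to 321 CPM in CNTF and 570.1 to 807 CPM in 1% FBS (-1.12). SPONT had 65.3, 75.4 and 1068 CPM of these 3, all nearer to 1% FBS or beyond it. Amino acid response and ATF4 targets gave 18 tested of 19, 0 higher, 8 lower and 10 not called, median log2FC -0.43, with Phgdh, which starts serine synthesis, at 618 to 701 CPM in CNTF and 934 to 1315 CPM in 1% FBS (-0.70). The lower count was 5 without 1% FBS replicate 3, CNTF replicate 1 or CNTF replicate 2. Iron and copper genes gave 12 tested of 14, 5 higher, 3 lower and 4 not called, median log2FC 0.29, the higher count 3 without CNTF replicate 1. Transferrin, Trf, was at 116, 109, 111 and 111 CPM in CNTF and 31.7, 41.7, 32.6 and 49.7 CPM in 1% FBS (1.52 ± 0.11). Its receptor Tfrc was lower, at 17.9 to 21 CPM in CNTF and 36.8 to 42.7 CPM in 1% FBS (-1.01), and ceruloplasmin, Cp, higher, at 274 to 286 CPM in CNTF and 138 to 222 CPM in 1% FBS (0.50).

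**Figure D3:**
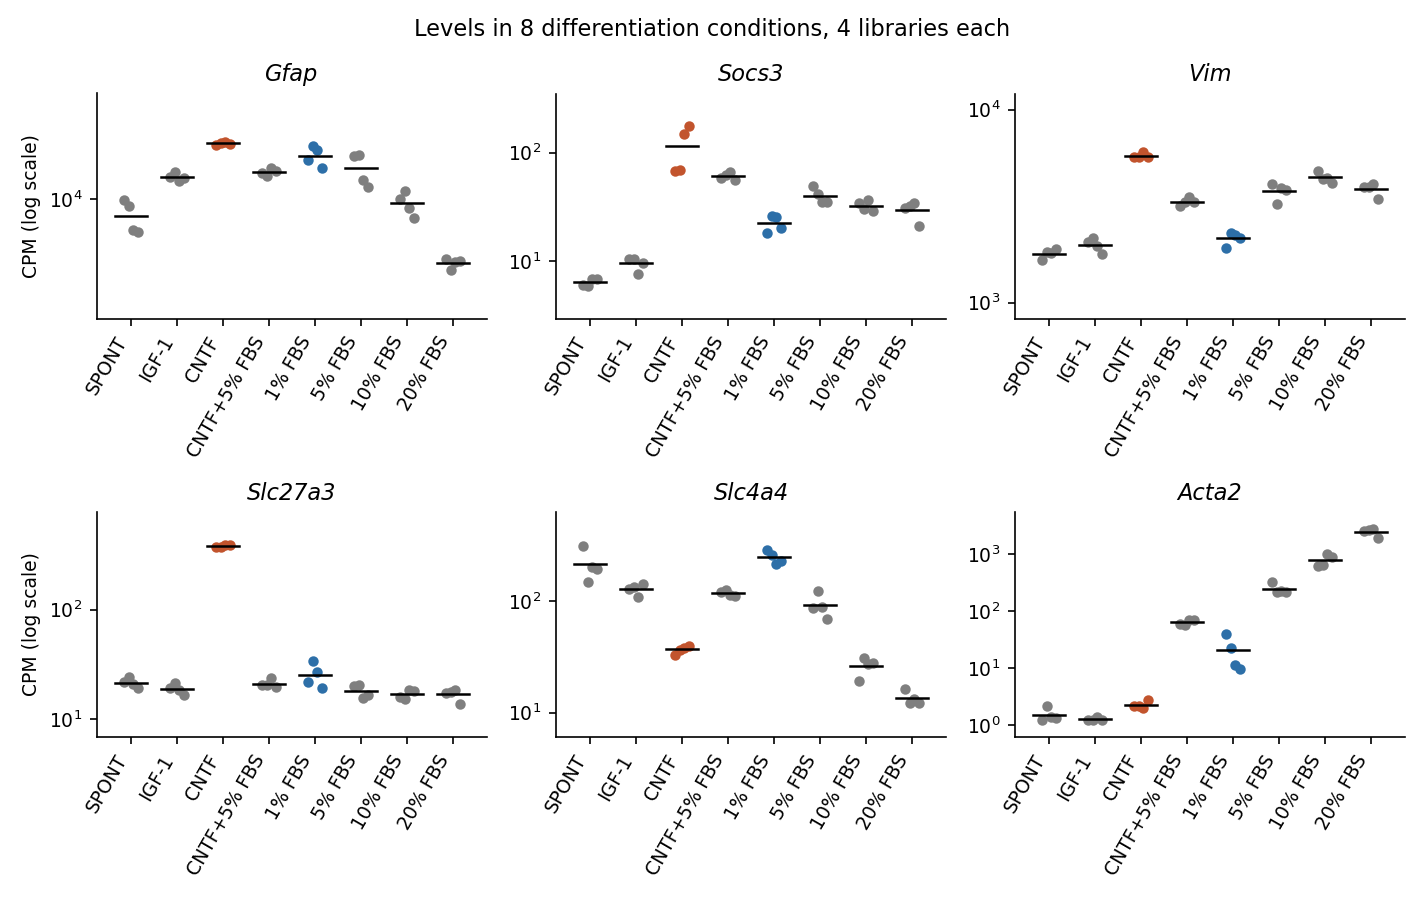
CPM of 6 genes in each library of the 8 differentiation conditions, 4 libraries a condition, on log axes, with a bar at the mean. Among these conditions Slc27a3 was high in CNTF alone, at a mean of 381 CPM against 21.3 in CNTF+5% FBS, and Acta2 rose with serum to 2503 CPM.

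The largest differences were taken among DEGs whose groups did not overlap and of which one reached a mean of 10 CPM. The 15 largest upward were Cyp4b1, Cdsn, Ppl, Htr3a, Trpc4, Prph, Slc27a3, Igf2, Cacng5, Psors1c2, Kank3, Itih4, Cntn2, Krt8 and Gpnmb, with log2FC from 3.09 to 5.58. Cyp4b1, a fatty acid hydroxylase, was at 41, 40.6, 44 and 39.7 CPM in CNTF and 0.595, 1.19, 0.619 and 1.05 CPM in 1% FBS (5.58 ± 0.16, edgeR's adjusted p 1.2e-10). Cdsn, a protein of skin junctions, was at 69.5, 75.1, 71.4 and 77.2 CPM in CNTF and 2.86, 5.08, 2.49 and 1.92 CPM in 1% FBS (4.59 ± 0.21). Ppl, a linker of keratin to junctions, was at 58.6, 64, 63.7 and 69.8 CPM in CNTF and 2.47, 3.51, 3.57 and 1.71 CPM in 1% FBS (4.51 ± 0.19). The serotonin-gated channel Htr3a was at 38.5, 38.8, 30.8 and 30.9 CPM in CNTF and 1.6, 2.11, 1.61 and 1.5 CPM in 1% FBS (4.35). Cacng5, which modulates glutamate receptors, was at 248, 272, 254 and 271 CPM in CNTF and 16.7, 18.9, 26 and 14.6 CPM in 1% FBS (3.77). Slc27a3 (chr3:90385230-90390835), an acyl-CoA synthetase, was at 377, 369.7, 389 and 388 CPM in CNTF and 21.9, 34.1, 27.2 and 19.5 CPM in 1% FBS (3.88 ± 0.15, adjusted p 8.3e-10). For each of these 6 genes the 4 CNTF libraries were at least 9 times above the highest 1% FBS library.

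Their levels elsewhere differed. Slc27a3 was at 16.9 to 25.8 CPM on average in NPC P15 and in every other differentiation group, CNTF+5% FBS included (21.3 ± 1.8). Among these groups it was thus high in CNTF alone and not where serum was also present. The other cultures of the series were not read. Npr1, a natriuretic peptide receptor that was chosen after its values were seen, had the same high group, at 44.6, 45.6, 49.1 and 47.3 CPM in CNTF and 7.49, 8.62, 8.22 and 7.23 CPM in 1% FBS (2.56 ± 0.08). Its means were 10.1 CPM in SPONT and 7.11 in CNTF+5% FBS. Cyp4b1 was at 2.69 CPM in CNTF+5% FBS against 0.847 in 5% FBS, Cdsn at 8.27 against 3.39 and Cacng5 at 75.6 against 28.7. These 3 were thus higher with CNTF in serum as well, by a smaller factor. C4b kept most of its level, at 113 CPM in CNTF+5% FBS against 29.6 in 5% FBS.

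The 15 largest downward had log2FC from -4.74 to -2.98 and included Cd34, Pcp4, Dlk1, Ogn, Pygm, Syt12, Pdgfd, Synpo2l, Olfr287, Acta2, Eva1a, Ppp2r2c, St8sia5 and Col1a1. Cd34, a sialomucin of stem and endothelial cells, was at 0.628, 1.03, 0.579 and 0.523 CPM in CNTF and 23.3, 22.8, 12.4 and 15.2 CPM in 1% FBS (-4.74 ± 0.25, edgeR's adjusted p 9.6e-09), although the defining endothelial markers were near 0. Pcp4, a calmodulin regulator, was at 0.882, 0.589, 0.977 and 0.833 CPM in CNTF and 16.2, 16, 15 and 23.8 CPM in 1% FBS (-4.44 ± 0.18). Ogn, a small matrix proteoglycan, was at 0.508, 0.736, 0.832 and 0.849 CPM in CNTF and 24.5, 11.5, 5.14 and 7.33 CPM in 1% FBS (-4.07 ± 0.44). Pygm, the glycogen phosphorylase of muscle and astrocytes, was at 2.4, 1.85, 1.5 and 1.7 CPM in CNTF and 24.5, 22.4, 33.2 and 40.2 CPM in 1% FBS (-4.01 ± 0.20) and at 887 in host astrocytes. Syt12 was at 1.43 to 2.21 CPM in CNTF and 18.4 to 25.7 CPM in 1% FBS (-3.68) and the growth factor Pdgfd at 0.835 to 0.989 CPM in CNTF and 6.57 to 12.1 CPM in 1% FBS (-3.51). In SPONT the means were 0.855 CPM for Cd34, 0.941 for Ogn and 2.05 for Syt12, near CNTF, but 20.7 for Pygm and 18.3 for St8sia5, near 1% FBS. The list of genes lowest in CNTF thus holds both genes that SPONT shared with CNTF and genes that it shared with 1% FBS.

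By difference of mean CPM, the 10 DEGs that gained most in CNTF were Vim, Actb, Clu, Dbi, Ctsb, Cfl1, S1pr3, Itm2b, Ddr1 and Gsn, and the 10 that lost most included Apoe, Ndrg2, Sparcl1, Cpe, Mt1, Atp1b2, Gpr17, Prdx6 and Cst3. The actin-severing protein Gsn was at 657, 599, 645 and 613 CPM in CNTF and 286, 241, 229 and 212 CPM in 1% FBS (1.37 ± 0.09, edgeR's adjusted p 4.5e-08). The lysosomal protease Ctsb was at 2665, 2622, 2790.3 and 2678 CPM in CNTF and 1697, 2096, 1891 and 1543 CPM in 1% FBS (0.56 ± 0.09). Ndrg2, a gene of mature astrocytes, was at 3129, 3086, 3241 and 3112 CPM in CNTF and 5523, 4956, 5188 and 5777 CPM in 1% FBS (-0.78 ± 0.06). Cpe, a peptide-processing enzyme, was at 2186, 2148, 2154 and 2139 CPM in CNTF and 3878, 3505, 3651 and 4309 CPM in 1% FBS (-0.84 ± 0.06). Dbi (0.39, adjusted p 0.00283) lost its call without CNTF replicate 3 (0.32).

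CNTF was also added to 5% FBS, in libraries that share none with those above. Against 5% FBS alone, CNTF+5% FBS had 1725 of 15272 tested genes higher (11.3%) and 1839 lower (12.0%), 3564 in all (23.3%). These counts fell to between 1037 and 1148 higher and between 931 and 1060 lower when any 1 of the 4 CNTF+5% FBS libraries was left out, with replicate 4 giving the lowest. Of the genes higher with CNTF against 1% FBS, 345 were also higher with CNTF in 5% FBS, which is 12.2% of the former and 20.0% of the latter. Of those lower, 517 were shared, 15.2% and 28.1%. The 12.2% and 15.2% compare with 11.3% and 12.0% of all genes tested in 5% FBS, so the former is near that share. Opposite calls outnumbered shared ones among the genes lower in CNTF, and not among those higher. In all, 679 genes lower in CNTF than in 1% FBS were higher with CNTF in 5% FBS, which is 20.0% of the former and 39.4% of the latter, and 275 went the other way, 9.7% and 15.0%. The 2 comparisons ask different questions, since serum is on 1 side only of the first and on both sides of the second, and the difference between their values was not tested.

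Side by side, some genes had the same direction in both, though among higher genes the shared calls were little above the share over all tested genes. Socs3 had log2FC of 2.36 and 0.53, Bcl3 2.40 and 1.65, Osmr 0.90 and 1.11, C4b 2.65 and 1.85, Serping1 2.56 and 2.13, and Gdnf 2.42 and 2.10, all called in both. Lower in both were Slc1a2 (-2.70 and -1.40), Sparcl1 (-1.41 and -1.47), Slc7a11 (-2.47 and -1.46), Id1 (-1.19 and -1.47), Acta2 (-3.20 and -2.03), Col1a1 (-2.98 and -3.61) and Cx3cl1 (-0.83 and -1.02). Cell cycle genes, 30 higher of 35 tested against 1% FBS, had none called in either direction in 5% FBS by edgeR, with a median log2FC of 0.01. There 0 were higher and 4 lower at an unadjusted p below 0.05, and DESeq2 called 2 lower. Healthy astrocyte genes, 31 lower of 44, had 10 lower and 4 higher of 44, with a median of -0.11. Of the matrix genes, 23 of 42 were lower and 9 higher against 1% FBS, and 15 and 5 with CNTF replicates 1 and 2 alone. In 5% FBS 29 of 42 were lower, with a median of -1.40, and there Col6a2 (-1.84), Col6a1 (-1.20) and Fn1 (-1.60) were lower with CNTF, opposite to their direction against 1% FBS. Nes was opposite as well (1.01 and -0.93), as was Gja1 (-1.58 and 0.70). Contractile genes were 17 lower of 26 and none higher by edgeR or DESeq2, with 2 higher at an unadjusted p below 0.05. STAT3 targets were 2 higher and 5 lower of 23. Cytosolic ribosomal protein genes, 0 higher and 1 lower of 30 against 1% FBS by edgeR, were 0 higher and 27 lower of 30 in 5% FBS. Their median log2FC there was -0.50.

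Promoters of the STAT3 targets were read, of which 11 were higher and 3 lower in CNTF. The windows, from RefSeq on GRCm38.p6, run from 250 bases before a start of transcription and hold 300 bases. That of Socs3 lies within the span given for the gene, which begins further upstream than the start used. STAT proteins bind TTCNNNGAA, which reads the same on both strands, and these letters are in 2726 of the 32851 promoters of all genes (8.30%). Of 23 STAT3 targets 19 had a window, and 7 of their 21 windows (33.3%), of Bcl6, Cish, Fgl2, Gfap, Icam1 and Socs3, held them. Among the 15 largest upward DEGs 13 had a window and 3 of 18 windows held them (Cdsn, Cyp4b1 and Itih4), and among the 15 largest downward, 11 had a window and none of 12 held them. The 4 below set the letters, in capitals, in genes with a large difference (Socs3 and Cyp4b1) beside those in genes that were not called. The latter are Gfap, by whose level the groups were chosen, and Cish, whose promoter holds the letters at 2 places. A match is a description, not a site or a cause. They lie at chr11:117969317-117969616, minus strand (Socs3), chr11:102897151-102897450, minus strand (Gfap), chr9:107296409-107296708, plus strand (Cish) and chr4:115647672-115647971, minus strand (Cyp4b1).
Socs3: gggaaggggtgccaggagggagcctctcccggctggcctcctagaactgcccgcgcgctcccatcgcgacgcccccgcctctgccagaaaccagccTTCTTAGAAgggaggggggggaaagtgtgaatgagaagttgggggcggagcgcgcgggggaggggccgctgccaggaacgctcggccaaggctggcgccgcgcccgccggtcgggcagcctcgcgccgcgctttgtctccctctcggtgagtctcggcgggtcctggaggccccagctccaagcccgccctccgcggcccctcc
Gfap: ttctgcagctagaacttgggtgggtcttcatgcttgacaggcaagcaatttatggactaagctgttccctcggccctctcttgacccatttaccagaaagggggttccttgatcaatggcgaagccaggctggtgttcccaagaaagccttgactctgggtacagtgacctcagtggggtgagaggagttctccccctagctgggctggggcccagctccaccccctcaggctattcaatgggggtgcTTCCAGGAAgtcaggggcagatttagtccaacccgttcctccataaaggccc
Cish: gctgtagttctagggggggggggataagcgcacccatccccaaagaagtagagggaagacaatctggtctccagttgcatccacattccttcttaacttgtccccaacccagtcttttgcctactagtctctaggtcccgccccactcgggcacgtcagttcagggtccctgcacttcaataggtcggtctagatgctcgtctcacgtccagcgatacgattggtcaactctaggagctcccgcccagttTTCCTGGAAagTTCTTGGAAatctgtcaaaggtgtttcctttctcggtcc
Cyp4b1: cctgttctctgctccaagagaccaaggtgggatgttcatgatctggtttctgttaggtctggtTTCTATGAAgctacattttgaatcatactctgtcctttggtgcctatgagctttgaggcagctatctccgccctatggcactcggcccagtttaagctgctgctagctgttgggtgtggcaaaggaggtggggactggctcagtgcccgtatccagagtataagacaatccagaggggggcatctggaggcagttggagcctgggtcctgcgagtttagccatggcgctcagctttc

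The CArG box, the motif of serum response factor, was in 535 of the 32851 promoters (1.63%) on either strand. Of the 27 windows of 24 contractile genes it was in 5 (18.5%), those of Cnn2, Myl6, Myl9, Srf and Vcl. Acta2 had no match in its window, which says only that these letters are not there.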

How the data were processed

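RNA pulled down with tagged ribosomes was sequenced, and the authors aligned reads with HISAT2 after Trimmomatic and counted them with featureCounts at default settings. The deposited values are counts per gene for 27179 genes a library. Among counts of 1 to 20, 60.6 to 66.4% were even in the 8 libraries. Whether each read of a pair was counted separately was not tested, so totals and FPKM may be of reads and not of fragments. Genes were named from RefSeq GRCm38.p6 (25275) or GENCODE M21 (18), and 1886 had no name. Counts are unstranded, and the spans of 29 named genes, such as Gpr17, Timp1, Tagln, Ogn, Cebpd and Aldh1a1, overlap that of another tested gene. Overlap of exons was not read, so the counts might not separate such genes. Each comparison used its own 8 libraries in edgeR 4.0.16 (R 4.3.3) with filterByExpr, TMM and the quasi-likelihood F test, checked on simulated data. Standard errors are the log2FC over the root of F. FPKM used the union of GENCODE M21 exons. Named genes were taken from 45 lists, up to 8 of each, the 15 DEGs a direction with the largest log2FC among those with at least 10 CPM in a group and no overlap, and the 10 a direction with the largest difference of mean CPM. Cell type markers were named besides. The members and lists were chosen with earlier results of these data known. Alternatives were DESeq2 1.42.0, its size factors in edgeR, no filter, at least 1 CPM in 4 libraries, a replicate block, all 8 differentiation groups in one fit, other thresholds, each library left out, no genes without a name, and CNTF replicates 1 and 2 alone. Python 3.11.15, numpy 2.4.6, pandas 2.3.3 and matplotlib 3.10.9 were used. The study describes its culture replicates in general as biological and independent, and the labels do not say for these libraries what a replicate was. All came from 1 cell line, so p-values measure the spread between libraries of that line.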

Additional observations from a re-analysis of the deposited data

Results flagged for a closer look

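In each group of 4 libraries, the gap between the highest or lowest value of a named gene and its nearest neighbour was divided by the range of the group, and values above Dixon's critical value are listed. This held in 27 of 448 groups, and chance flags about 1 in 20 groups. Values are CPM of the library that stood apart, then the lowest and highest of the other libraries of its group. CNTF replicate 3 stood apart in 12 of them, with Lifr (14.7 against 17.7 to 18.3), Vim (6061 against 5654 to 5713), S1pr3 (673 against 742 to 751), Stat5a (1.61 against 1.83 to 1.88), Serping1 (13 against 11 to 11.2) and S100a10 (485 against 394 to 400). It also did so for Psmb9 (3.56 against 2.32 to 2.52), Notch3 (34.5 against 41.1 to 42.3), Hes1 (53.4 against 44.4 to 45.5), Synpo2l (1.88 against 1.35 to 1.39), Ppp2r2c (3.75 against 4.18 to 4.24) and Prdx6 (2250.3 against 2091 to 2115). Apart from its group 1% FBS replicate 4 stood 7 times, for Fabp7 (1861 against 1061 to 1161), Tgm1 (2.49 against 5.36 to 5.78), Mt3 (2229 against 1534 to 1623), Timp2 (356 against 414 to 419), Pcp4 (23.8 against 15 to 16.2), St8sia5 (22 against 17.3 to 17.9) and Aldh1a7 (13.7 against 7.23 to 8.1). For CNTF replicate 1 the genes were C4b (159.2 against 147.6 to 148.3), Tfrc (17.9 against 20.5 to 21) and Anxa1 (1.42 against 1.86 to 1.94). For 1% FBS replicate 1 the genes were Snai1 (5.35 against 2.4 to 2.89) and Angptl4 (1.4 against 2.48 to 2.55). In CNTF replicate 4 it was Id4 (74.5 against 69.9 to 70.3). In 1% FBS replicate 2 it was Itgam (0.0649 against 0.0221 to 0.0263). In 1% FBS replicate 3 it was Cp (138 against 211 to 222). The total counts of no library stood apart in this way. Why these libraries differ was not tested.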

How the results depend on the processing

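Of 209 tested genes that the text names, 190 were called. All but 18 of the 190 were called in every alternative fit in which they were tested, and none of the 190 changed direction in any. The other thresholds were not applied to these genes, and called genes such as Osmr (0.90) and Stat3 (0.31) changed less than 2-fold. The stricter filter left out 4 of the 209. The 18 lost their call in at least 1 alternative, 15 of them with CNTF replicates 1 and 2 alone, where 4 libraries were compared with 2 (Apoe, C1ra, C1s1, Col3a1, Cp, Dbi, Egfr, Esrrb, Fn1, Fos, Itm2b, Junb, Map2, Rorb and Stat3). In the fit of all 8 differentiation groups Apoe, C1ra, Egfr, Gpr17, Mapt and S100b lost it, and with DESeq2 Junb did. Apoe also lost it with the replicate block, DESeq2 size factors in edgeR and the stricter filter. DEGs higher in CNTF than in 1% FBS, 2836 as reported, came to between 2593 and 3403 with other size factors, DESeq2, no or a stricter filter, the replicate block and all groups in one fit, and those lower, 3398, to between 2999 and 3627. With each library left out they ranged from 2343 to 3318 and from 2761 to 3517. At an adjusted p below 0.05 there were 3866 and 4302. They moved to 473 and 779 when a change of at least 2-fold was also required, and to 1625 and 2214 with CNTF replicates 1 and 2 alone. The latter alternative and that without genes that have no name (2882 and 3333) were chosen after seeing the data. For CNTF+5% FBS against 5% FBS, 1725 higher and 1839 lower DEGs became 1037 to 1949 and 931 to 1959 with each library left out, 2491 and 2515 with DESeq2, and 1296 and 1220 with a replicate block. Replicate numbers did not pair the libraries, since the differences from the group mean correlated at -0.10 to 0.07 across genes between CNTF and 1% FBS libraries of the same number, and genes are not independent replicates. Log2FC that changed sign were those of Egr1 (-1.03) and Cd44 (-0.0071) with CNTF replicates 1 and 2 alone, and with a library left out those of Cish (-0.14 to 0.025), Cd44 (-0.047 to 0.065) and C3 (-0.043 to 0.27), none of them called. The cause was not tested. Of 94 counts of DEGs in lists, 16 moved by more than 1.5 times in some run with a library left out, and 25 with CNTF replicates 1 and 2 alone. Both groups received an addition, so no value here gives the effect of CNTF or of serum alone, and all cultures came from 1 cell line. Genes at a few counts, such as Acan in CNTF, have imprecise ratios.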

Other observations

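The tested genes were also read in windows of 5 neighbours along each chromosome, and the windows named here were chosen after their values were seen. The highest median log2FC of CNTF over 1% FBS, 3.47, belonged to 5 neighbours on chromosome 17, from position 35512730 to 35568945. They were Tcf19, Cchcr1, Psors1c2, Cdsn and 2300002M23Rik. Psors1c2, a skin protein, was at 11.9, 14, 15.1 and 12.5 CPM in CNTF and 1.57, 1.19, 1.37 and 0.685 CPM in 1% FBS, and every CNTF library was higher. The unnamed reading frame 2300002M23Rik was at 7.8, 7.48, 8.78 and 8.69 CPM in CNTF and 0.207, 0.227, 0.132 and 0.0663 CPM in 1% FBS. Of these 5, 5 were called higher by edgeR and 0 lower. The lowest median, -2.30, belonged to 5 neighbours on chromosome 19, Rorb, Anxa1, Aldh1a1, E030003E18Rik and Aldh1a7. Rorb, a nuclear receptor, was at 17.7, 18, 14.1 and 16.8 CPM in CNTF and 21.2, 28.9, 21.1 and 28.4 CPM in 1% FBS. Anxa1, which binds phospholipids, was at 1.42, 1.9, 1.94 and 1.86 CPM in CNTF and 1.68, 1.48, 0.566 and 0.42 CPM in 1% FBS. Of these 5, 4 were called lower and 0 higher. The spans of Aldh1a1 and E030003E18Rik overlap, so unstranded counts might not separate them.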
